A study of Mus musculus with 11 samples.

Results

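Fscn1, the gene of the actin-bundling protein fascin, was followed in sorted peritoneal macrophages of mice that carry or lack RELMα, with and without IL-4 complexes (IL-4c). It is 1 of 754 genes counted with the Myeloid Innate Immunity v2 panel of Nanostring, and it was chosen by its measured values: its lower level in RELMα-deficient macrophages after PBS and its low level after IL-4c. Its values are therefore given as a description without a test. The 11 animals were female C57BL/6 mice aged 6 to 8 weeks, either wild-type (Rα+/+) or homozygous for an allele in which TdTomato with a stabilizing WPRE element replaces several exons of Retnla, the gene of RELMα (RαTd/Td). They received PBS or IL-4c into the peritoneum on days 0 and 2, and CD11b+F4/80+ macrophages were sorted on day 4. The groups were PBS Rα+/+ (mice 1 and 2), PBS RαTd/Td (mice 3 and 4), IL-4c Rα+/+ (mice 5, 6 and 7) and IL-4c RαTd/Td (mice 9, 10, 11 and 12). There is no mouse 8 in the table, since the study left out 1 mouse of the IL-4c Rα+/+ group as an outlier in expression, so the separation of PBS from IL-4c mice holds for the mice kept. The allele was made constitutive with a Cre driven by a CMV promoter, so RELMα was absent from all cells of these mice and not from macrophages alone. The cells were measured in bulk, where fewer cells that express a gene and less RNA per cell cannot be told apart.

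Fascin binds neighbouring actin filaments and packs them into tight parallel bundles, which stiffen filopodia and other thin protrusions of the cell surface. Among leukocytes it is best known from mature dendritic cells, whose long processes and migration depend on it, and it is commonly low in resting macrophages. Phosphorylation by protein kinase C releases fascin from actin, and NF-kB, STAT3, CREB and beta-catenin are among the factors described to act on its gene.

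The 250 bases before the start of Fscn1 are shown because the RNA level of this gene is what differed between the groups. They come from the RefSeq table of mouse promoters (GRCm38.p6, chr5:142960105-142960354, plus strand) and read 5′ to 3′, with the matches to the searched motifs in capitals.
Fscn1: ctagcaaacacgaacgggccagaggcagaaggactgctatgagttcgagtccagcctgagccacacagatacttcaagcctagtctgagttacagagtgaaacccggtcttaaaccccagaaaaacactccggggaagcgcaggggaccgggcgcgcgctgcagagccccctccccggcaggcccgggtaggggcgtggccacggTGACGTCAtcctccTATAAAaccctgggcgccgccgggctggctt
The capitals mark TGACGTCA, the palindromic cyclic AMP response element, whose first base lies 45 bases before the start, and TATAAA, the TATA box, whose first base lies 31 bases before it. Both strands were searched, and the matches do not overlap. TGACGTCA occurred in the same window of 1.62% of 27025 promoters and TATAAA in 3504 of them. The GC box GGGCGG, present in 32.9% of promoters, had no match here, although G and C made up 62.4% of the bases against a median of 52.0% over all promoters. These matches describe the sequence and do not show that a factor binds it.

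The genotype labels were checked on Retnla. It stood at 4631 and 4141 normalized counts in the PBS Rα+/+ mice and at 115675, 147349 and 171588 in the IL-4c Rα+/+ mice, and it was at the floor of the table in all 6 RαTd/Td mice. The floor is a value of 30 that replaced low values, and normalized counts are probe counts scaled to 4 housekeeping genes. The counts behind the values summed to 297254 and 551546 in mice 1 and 2, to 268858 and 280396 in mice 3 and 4, and to between 447267 and 574505 in the IL-4c mice. The exact rule of the floor is not stated in the sources used here. It was read from the values as a cut that also fell at 30 counts before scaling. On that reading the lowest value that could be measured differed between mice, from 30.5 in mouse 9 to 56.3 in mouse 4. The limits given below rest on it. The sorted cells carried the markers of resident macrophages in every mouse: Adgre1, which encodes F4/80, lay between 5897 and 10617 normalized counts, Itgam, which encodes CD11b, between 7780.2 and 11245, and Gata6, the regulator of large peritoneal macrophages, between 503 and 712.

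Fscn1 was highest in PBS Rα+/+ macrophages, at 474 and 358 normalized counts in mice 1 and 2. In PBS RαTd/Td macrophages it stood at 99.0 and 120.2 in mice 3 and 4. After IL-4c it was at the floor in 6 of 7 mice, and mouse 11 (RαTd/Td) had 32.3, which is the lowest value that could be measured in that mouse. Both wild-type mice lay above both RELMα-deficient mice after PBS, and all 4 PBS mice lay above every IL-4c mouse kept in the table.

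**Figure D1:**
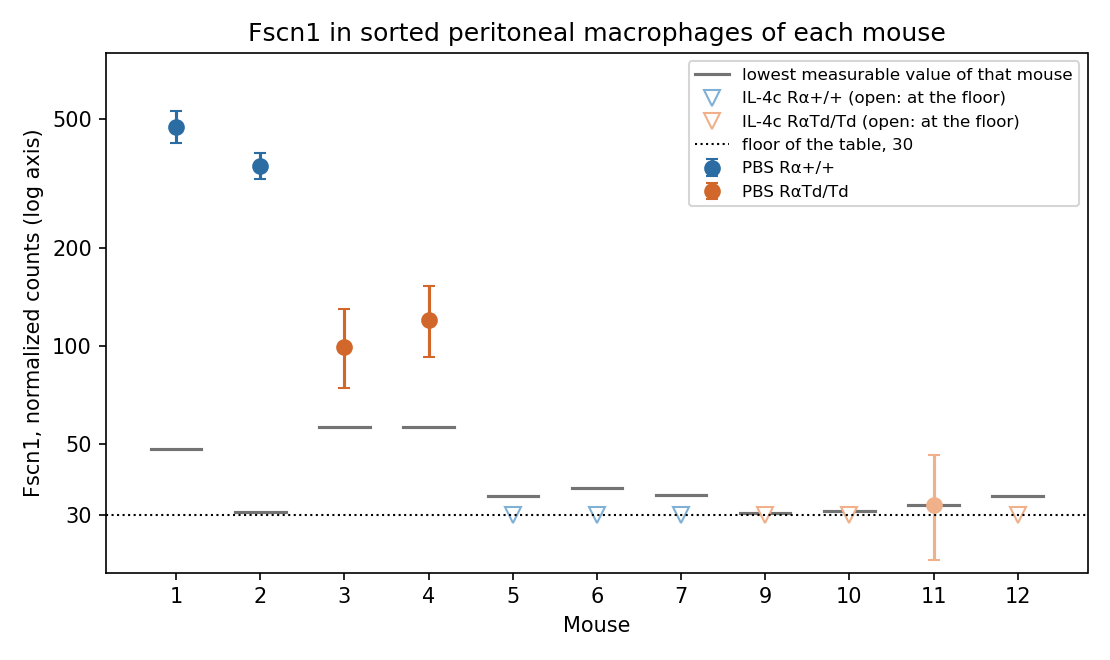
Fscn1 in normalized counts (log axis) in each of the 11 mice, with bars for the exact Poisson 95% interval of the count (counting error only), open triangles for values at the floor of 30, and grey lines for the lowest value measurable in each mouse. The PBS Rα+/+ mice lie at 474 and 358, the PBS RαTd/Td mice at 99.0 and 120.2, and 6 of the 7 IL-4c mice at the floor.

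The group means after PBS were 416 ± 81.9 normalized counts in Rα+/+ mice (SD, n = 2) and 109.6 ± 15.0 in RαTd/Td mice (SD, n = 2). The ratio of their geometric means was 3.78, and the ratios of single mice across the genotypes ran from 2.98 to 4.79. Within a genotype the higher mouse exceeded the lower by 1.32-fold in Rα+/+ and 1.21-fold in RαTd/Td mice. The genotypes stood further apart than the mice of either, which the choice of Fscn1 by these values makes likely. The probe counts behind these values were 295 and 478 in mice 1 and 2 and 53 and 64 in mice 3 and 4. Their exact Poisson 95% intervals, which cover counting error only, were 262 to 331, 436 to 523, 39.7 to 69.3 and 49.3 to 81.7.

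After IL-4c the level of Fscn1 was lower than after PBS by at least 11.7-fold in Rα+/+ mice (n = 3 and 2) and by at least 3.41-fold in RαTd/Td mice (n = 4 and 2). These are lower limits, since IL-4c mice at the floor were counted at the lowest value measurable in each. The larger limit in Rα+/+ mice follows from their higher level after PBS: with both genotypes at the floor after IL-4c, the size of the response could not be compared between them. The order of the groups was thus PBS Rα+/+, PBS RαTd/Td and then both IL-4c groups, which had no order between them and no fold. The lower PBS RαTd/Td mouse was at least 2.72-fold above the highest limit among the IL-4c mice. This and the order of the groups were read with scaling to the 4 housekeeping genes. After scaling to the positive controls, mouse 3 did not lie above the limits of any IL-4c Rα+/+ mouse or of mouse 10 (IL-4c RαTd/Td). Mouse 4 did not lie above the limits of mice 5 and 6, so under that scaling the order did not hold mouse by mouse.

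The limit for IL-4c in RαTd/Td mice depended on the normalization, while the order of the genotypes after PBS did not. Normalizing to each housekeeping gene alone, to the 6 positive control probes, to the sum of counts or to nothing were alternatives chosen after seeing the data. Under these the PBS ratio of Rα+/+ over RαTd/Td lay between 3.38 (Gusb) and 6.45 (counts as read), and in none did the PBS groups overlap. The level after IL-4c in RαTd/Td mice was lower by at least 1.91-fold in counts as read and by at least 1.19-fold after scaling to the positive controls. In Rα+/+ mice the same scaling gave at least 4.83-fold. The geometric mean of the positive controls, which are added to each lane in known amounts, was 853 to 1021 counts in the PBS mice and 301 to 623 in the IL-4c mice. The paper states that the Nanostring analysis was done once, in a single experiment. Whether the lanes of the 2 treatments were run apart within it is not stated in the labels, so treatment and run may coincide in every value of IL-4c against PBS. The part of the lanes in these values was not tested.

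**Figure D2:**
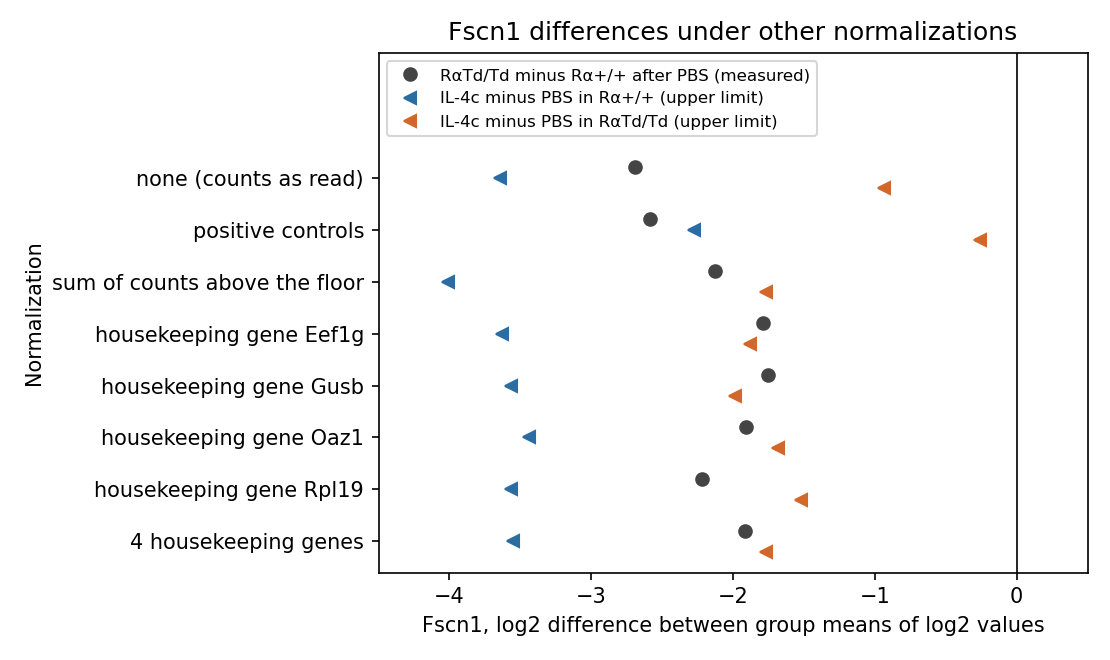
Fscn1 differences on the log2 scale (horizontal axis) under 8 normalizations (vertical axis), with circles for RαTd/Td minus Rα+/+ after PBS and triangles for the upper limit of IL-4c minus PBS in each genotype. The circles lie between -2.69 and -1.76, and the limits in RαTd/Td mice run from -1.99 (Gusb) to -0.26 (positive controls).

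Across the panel, 445 genes had a mean above 30 normalized counts and were fitted with limma on log2(normalized count + 1). A gene with an adjusted p at or under 0.05 is referred to as called. Since 30 is the floor, this filter kept every gene above it in at least 1 mouse, and 303 genes were above it in all mice. With IL-4c, 32.4% of the tested genes were called lower and 13.9% higher in Rα+/+ mice. In RαTd/Td mice 36.6% were called lower and 15.3% higher. The excess of lower calls depended on the scaling. When the median gene of each mouse was set to 0 (centring), 92 genes were called lower and 106 higher in Rα+/+ mice and 110 lower and 104 higher in RαTd/Td mice, and quantile normalization gave 107 and 104, and 109 and 89. Fewer genes separated the genotypes: in RαTd/Td macrophages 1.57% were called lower and 8.09% higher after PBS, and 1.12% lower and 1.57% higher after IL-4c. These shares were less stable: after PBS, 7 genes lower and 36 higher became 10 and 16 with centring and 8 and 15 with quantile normalization, and with mice left out the 43 calls ranged from 3 (without mouse 4) to 73 (without mouse 1). Under a single floor of 56.3 for all mice, 4 genes were called lower and 36 higher after PBS. The fitted difference of Fscn1 between the genotypes after PBS was -1.91 on the log2 scale, against a median of 0.10. Its rank was 3 from the lowest among the 445 genes. For IL-4c its fitted difference was -3.74 in Rα+/+ mice (rank 4 from the lowest, median -0.18) and -1.80 in RαTd/Td mice (rank 27, median -0.23). These 2 differences and their ranks were set in part by the floor of 30, and with the lowest measurable value of each mouse the differences were at most -3.55 and -1.77. Centring moved the medians with IL-4c to 0.12 and 0.03, and the Fscn1 differences to -3.44 and -1.54.

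**Figure D3:**
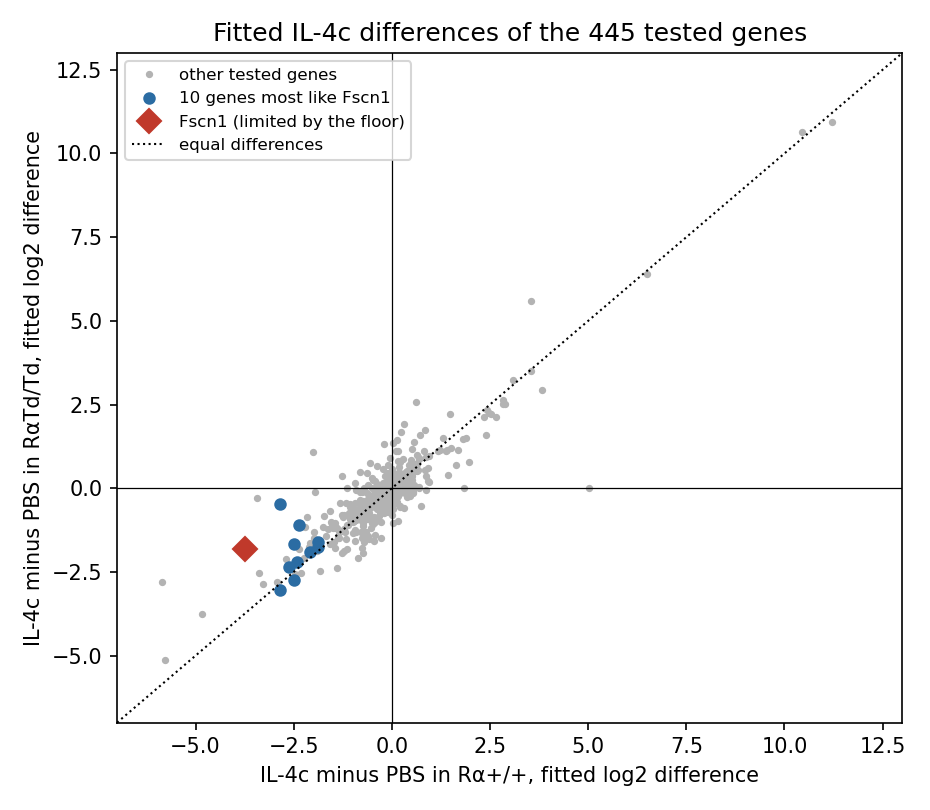
Fitted log2 difference between IL-4c and PBS in Rα+/+ (horizontal axis) and RαTd/Td macrophages (vertical axis), with 1 point for each of the 445 tested genes and a dotted line where both are equal. Fscn1 (red diamond) lies at -3.74 and -1.80, both limited by the floor, and the 10 genes most like it are in blue.

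The genes whose pattern over the 11 mice was most like that of Fscn1 were sought by the root mean square difference of log2 values after each gene was centred on its own mean. The 10 nearest were Fpr1 (0.50), Cxcl12 (0.66), Fcgr1 (0.70), Nlrp3 (0.70), Irf8 (0.71), Pf4 (0.71), S1pr1 (0.73), Dusp1 (0.75), Stab1 (0.77) and Cxcl14 (0.79). The median over all tested genes was 1.42, and Fscn1 itself varied by 1.45 around its own mean. All 10 were called lower with IL-4c in Rα+/+ mice and 9 of 10 in RαTd/Td mice, beside 32.4% and 36.6% of all tested genes, which the choice of genes by the same values makes likely. The call of Pf4 in RαTd/Td mice held in 14 of 18 refits and was lost without mouse 3, 4 or 10 and without a filter. After PBS, 1 of the 10, Fpr1, was called lower in RαTd/Td mice, beside 1.57% of all tested genes. The choice of genes used the PBS mice too, so it bears on this call and its p-value as well.

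**Figure D4:**
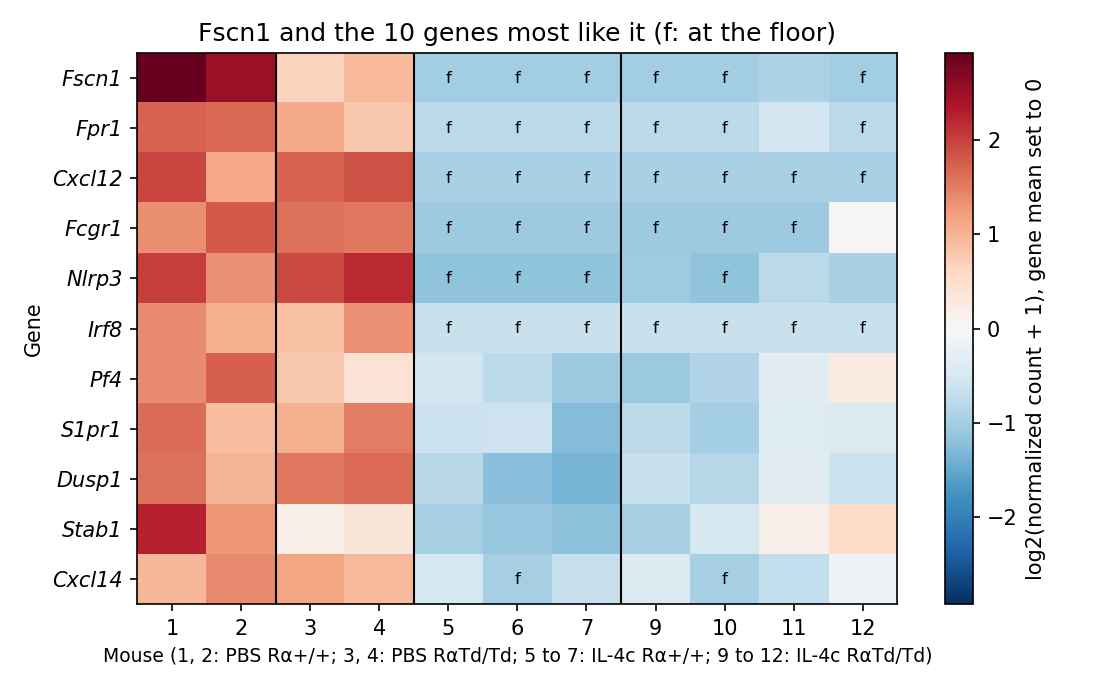
Log2 normalized counts (1 added, mean of each gene set to 0; colour) of Fscn1 and the 10 genes most like it (rows) in the 11 mice (columns), with values at the floor marked f. All genes but Stab1 are higher in each of the 4 PBS mice than in any IL-4c mouse, while the lower level in mice 3 and 4 than in mice 1 and 2 is shared by Fscn1, Fpr1, Pf4 and Stab1.

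Fpr1, a formyl peptide receptor that guides phagocytes to bacterial products, was the nearest. It stood at 175 and 171 normalized counts in PBS Rα+/+ mice and at 114 and 92.0 in PBS RαTd/Td mice, a ratio of 1.69, with a fitted log2 difference of -0.75 (limma, adjusted p = 0.0101). Without mouse 4 the difference was -0.60 and not called. After IL-4c it was at the floor in every mouse but mouse 11, which had 35.6. Like Fscn1, it thus had a step between the genotypes after PBS and ended at or near the floor.

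Pf4, a chemokine stored in platelets and also made by macrophages, and Stab1, a scavenger receptor, also had PBS genotypes that did not overlap. Pf4 was at 6157 and 7919 normalized counts in PBS Rα+/+ mice and at 4089 and 3162 in PBS RαTd/Td mice, and Stab1 at 474 and 242 against 114 and 128. Neither difference was called (limma, adjusted p = 0.173 and 0.0811), though that of Stab1 was in 2 of 18 refits, after centring (-1.63) and without mouse 9. Of the 445 tested genes, 60 had PBS genotypes that did not overlap with RαTd/Td lower. After IL-4c, Stab1 stayed between 50.5 and 148 in RαTd/Td mice, where its fitted difference of -0.46 was not called (adjusted p = 0.362).

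In the other 7, the PBS genotypes overlapped. Cxcl12, a chemokine that retains leukocytes in tissues, was at 232 and 130.5 normalized counts in PBS Rα+/+ mice, at 196 and 216 in PBS RαTd/Td mice and at the floor in all 7 IL-4c mice. Irf8, a transcription factor of monocytes and dendritic cells, was between 87.8 and 125 in the PBS mice and likewise at the floor after IL-4c. Nlrp3, the sensor of an inflammasome, was between 174 and 315 after PBS and at or below 39.9 after IL-4c. These genes shared the low level after IL-4c with Fscn1 and not its step between the genotypes.

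Fscn1 is left aside here, since no test is given for it, though the counts and shares of all tested genes include it. Of the other tested genes, 6 were called lower in RαTd/Td than in Rα+/+ macrophages after PBS, among them Retnla, Mmp9, Eif2b4 and Fpr1. Mmp9, a secreted protease that degrades matrix, was at 51.5 and 87.0 normalized counts in PBS Rα+/+ mice and at the floor in the other 9, so that the ratio between the PBS genotypes was at least 1.19. Eif2b4, a subunit of a translation initiation factor, was at 56.3 and 54.7 in PBS Rα+/+ mice and at the floor in mice 3 and 4. Since their geometric mean did not exceed what could be measured in mice 3 and 4, no fold was given for Eif2b4. Under a single floor of 56.3 for all mice the differences were -0.31 for Mmp9 and 0 for Eif2b4, and neither was called, nor were they without mouse 4. Of the 6, 3 were at the floor in both PBS RαTd/Td mice and could not be called lower with IL-4c in that genotype. Among the others, only Fpr1 was also called lower with IL-4c in both genotypes.

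Of 85 other genes of the actin cytoskeleton, the panel measured 10 and 9 were tested, of which Gsn was above the floor in only 1 mouse. With IL-4c, 3 were called lower and 2 higher in Rα+/+ mice, where 32.4% and 13.9% of all tested genes were called. In RαTd/Td mice 2 were called lower and 1 higher, beside 36.6% and 15.3%. After centring, the Rα+/+ counts were 1 lower and 2 higher, beside 92 and 106 of all 445 genes, and those in RαTd/Td mice were unchanged, beside 110 and 104. With quantile normalization 2 were lower and 2 higher in each genotype, beside 107 and 104 of all genes in Rα+/+ and 109 and 89 in RαTd/Td mice. Their median log2 differences were -0.28 and -0.26, beside -0.18 and -0.23 over all tested genes. Between the genotypes limma called 0 of the 9 in either treatment, beside 1.57% lower and 8.09% higher of all genes after PBS and 1.12% and 1.57% after IL-4c. Of the 9, 1 (PBS) and 2 (IL-4c) had an unadjusted limma p of 0.05 or less, as had 102 and 97 of all 445 genes. The methods' t-test called 0 of the 9 after adjustment in both, beside 2 of all genes in each. Without adjustment it called 1 (PBS) and 1 (IL-4c) of the 9, beside 54 and 73 of all genes.

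Marcksl1, whose product binds actin at the membrane, was called lower with IL-4c in Rα+/+ mice (limma, adjusted p = 0.000668) and in RαTd/Td mice (adjusted p = 0.00197), also under a single floor for all mice. It was between 142 and 178 normalized counts in the 4 PBS mice, which overlapped between genotypes, and at or below 86.1 after IL-4c. It was at the floor in all 3 IL-4c Rα+/+ mice and in mouse 9, so the size of its difference was not measured.

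Of 30 genes for integrins and adhesion, 21 were measured and 13 tested, of which Cdh1 was above the floor in only 1 mouse and Icam1 in 2. With IL-4c, 3 were called lower and 3 higher in Rα+/+ mice, against 32.4% and 13.9% of all tested genes, and 4 lower and 2 higher in RαTd/Td mice, against 36.6% and 15.3%. The split depended on the scaling. It was 2 lower and 3 higher in Rα+/+ mice after centring, where 92 and 106 of all 445 genes were called, and also with quantile normalization, with 107 and 104 of all. In RαTd/Td mice it was 2 lower and 6 higher after centring, beside 110 and 104 of all, and 3 and 3 with quantile normalization, beside 109 and 89. Under a single floor for all mice it was 3 lower and 2 higher in Rα+/+ mice, beside 131 and 56 of all. In RαTd/Td mice it was 4 and 1, beside 160 and 57. Itga5, above the floor only in mouse 2 among the PBS mice, was then no longer called in either genotype. Itga4, an integrin chain that binds VCAM-1, had log2 differences of -1.39 and -1.18, and Alcam, an adhesion molecule, rose by 1.38 and 1.12. After PBS, 1 of the 13 was called between the genotypes, where 1.57% of all tested genes were called lower and 8.09% higher. This was Itgb7, an integrin chain, at 481 and 383 normalized counts in Rα+/+ mice and at 927 and 1102 in RαTd/Td mice (log2 difference 1.23, limma, adjusted p = 0.00565), the direction opposite to Fscn1. The methods' t-test called 0 of the 13 after adjustment in this comparison, beside 2 of all genes, and 2 without adjustment, beside 54. After IL-4c limma called 0, beside 1.12% lower and 1.57% higher of all genes, with 4 at an unadjusted p of 0.05 or less, beside 97 of all 445. There the methods' t-test called 0 after adjustment, beside 2 of all genes, and 5 without adjustment, beside 73.

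Since fascin is known from mature dendritic cells, 26 genes of their program were examined, of which 23 were measured and 10 tested. The other 13 were at the floor in every mouse, among them Ccr7, the receptor that leads these cells to lymph nodes, Lamp3, Cd83, Ccl17 and Ccl22. Of the 10 tested, Pdcd1lg2 and Stat4 were above the floor in only 1 mouse each. With IL-4c, limma called 5 of the 10 lower and 0 higher in Rα+/+ mice, beside 32.4% and 13.9% of all tested genes, and 4 lower and 1 higher in RαTd/Td mice, beside 36.6% and 15.3%. After centring or quantile normalization 4 were lower and 1, Cd274, higher in Rα+/+ mice, beside 92 and 106 of all 445 genes with centring and 107 and 104 with quantile normalization. In RαTd/Td mice centring gave 3 lower and 2 higher, beside 110 and 104 of all, and quantile normalization 3 and 1, beside 109 and 89. The costimulatory gene Cd86 had log2 differences of -1.27 and -1.93, while Cd274, which encodes PD-L1, was called higher in RαTd/Td mice (adjusted p = 0.00373), also under a single floor for all mice. Since Cd274 was at the floor in mouse 3, the size of its difference was not measured. Between the genotypes after PBS, where 1.57% of all tested genes were called lower and 8.09% higher, 1 of the 10 was called, Birc3, an inhibitor of apoptosis, which was higher in RαTd/Td mice by 0.69 (limma, adjusted p = 0.0436) and was not called after centring or quantile normalization, nor by the methods' t-test after adjustment. After IL-4c limma called 0, beside 1.12% lower and 1.57% higher of all genes, with 1 at an unadjusted p of 0.05 or less, beside 97 of all 445. The methods' t-test called 0 after adjustment in either treatment, beside 2 of all genes in each. Without adjustment it called 2 (PBS) and 1 (IL-4c) of the 10, beside 54 and 73 of all genes.

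Among 20 genes described to act on fascin or its gene, 6 were measured, and all were tested. With IL-4c, 2 of the 6 were called lower in each genotype, beside 32.4% of all tested genes in Rα+/+ and 36.6% in RαTd/Td mice, and after PBS 1 was called higher in RαTd/Td mice, beside 8.09%. Nfkbia, the inhibitor of NF-kB, fell with IL-4c by 1.06 on the log2 scale in Rα+/+ mice (limma, adjusted p = 0.000562) and fell by 0.48 in RαTd/Td mice (adjusted p = 0.0246), and the latter was not called after centring or quantile normalization. Hif1a was called lower in Rα+/+ mice and Nfkb1 in RαTd/Td mice, and neither call held under those scalings. Stat3 was higher in RαTd/Td mice after PBS by 0.42 (adjusted p = 0.0388), again not under those scalings, nor by the methods' t-test after adjustment. Quantile normalization also added calls, with Stat3 and Ctnnb1 higher with IL-4c in Rα+/+ mice. Ctnnb1, the gene of beta-catenin, was not called in the values as deposited, and Prkca, a protein kinase C, stood at or below 80.35 normalized counts.

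Markers of other cells were read beside Fscn1. A list for small peritoneal macrophages and monocytes, which the sort would keep, was also read, but its values are not given here. Its part in the Fscn1 values was not tested. Of 12 dendritic cell markers, 8 were measured, and 6 of these, including Flt3, Clec9a, Xcr1 and Ccr7, were at the floor in every mouse. The other 2 went in opposite directions with IL-4c. Irf8 stood at 125 and 101 normalized counts after PBS in mice 1 and 2, at 87.8 and 122 in mice 3 and 4, which overlap, and at the floor in all IL-4c mice. Batf3, a transcription factor of conventional dendritic cells, was at the floor in the PBS mice except mouse 2 (34.5) and at 45.7 to 75.4 after IL-4c, called higher in both genotypes but not under a single floor. Their part in the Fscn1 values was not tested. The B cell marker Ms4a1, the more abundant of 2 measured of 13 listed, was at 105 and 226 in mice 1 and 2, at 192 and 242 in mice 3 and 4, and at the floor after IL-4c except in mouse 12 (63.1). The other, Fcer2a, was at the floor throughout. It was thus lower after IL-4c, as Fscn1 was, and after PBS it was not lower in RαTd/Td mice. Whether B cells contributed to the Fscn1 values was not tested.

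For neutrophils 9 of 12 markers were measured, and Ly6g, Mpo, Elane, Camp, Cxcr2 and Mmp8 were at the floor in every mouse. Their summed level, led by Csf3r, was 574 and 334 normalized counts in mice 1 and 2, 629.75 and 537 in mice 3 and 4, and 0 to 151 after IL-4c. Mesothelial and stromal markers, 7 of 19 measured, summed to 232 and 130.5, 196 and 216, and 0 in all IL-4c mice but mouse 12 (122). All of it after PBS was Cxcl12, and Pdgfra, Pdgfrb, Cdh5 and Tek were at the floor throughout. These sums were lower after IL-4c, as Fscn1 was, and their part in its values was not tested.

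Mast cell and basophil markers, 8 of 10 measured, were led by Hdc and summed to 243 and 109 normalized counts in mice 1 and 2, 275 and 319 in mice 3 and 4, and 147 to 220.3 after IL-4c, with Kit, Fcer1a, Ms4a2, Cma1, Tpsb2 and Gata2 at the floor. After PBS limma called Hdc higher in RαTd/Td mice, beside 8.09% of all tested genes. It was not called after centring, quantile normalization or under a single floor. All 5 eosinophil markers (Siglecf, Epx, Prg2, Ccr3, Il5ra) and both measured T cell markers of 12 listed (Cd247, Cd28) were at the floor in every mouse. Markers of large peritoneal macrophages, 5 of 12 measured, summed to 26068 and 20973 in mice 1 and 2, 25722 and 26233 in mice 3 and 4, and 13863 to 20435 after IL-4c. Alox15 was the largest in each PBS mouse, from 10233 to 12437, and it was called lower with IL-4c in both genotypes, though not after centring or quantile normalization. Under a single floor its call was lost in Rα+/+ mice as well, but not in RαTd/Td mice. Timd4 and Selp were called lower in both genotypes, while Adgre1 was called higher in Rα+/+ mice and, with centring, quantile normalization or a single floor, in RαTd/Td mice too. The 6 measured of 8 general macrophage markers, led by Itgam, summed to 17974 and 19788, 17259 and 17003, and 15513 to 19408. After PBS this last sum was lower in both RαTd/Td mice, by far less than Fscn1 was, and its part in the Fscn1 values was not tested. The other lists of this paragraph that were above the floor did not follow the step of Fscn1 between the PBS genotypes.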

How the data were processed

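The deposited values are linear signal: probe counts that the authors scaled to 4 housekeeping genes (Rpl19, Oaz1, Gusb, Eef1g), with low values set to 30. The software version is not given in the sources used here. Values between 30 and 1000 were whole multiples (tolerance 0.1 counts) of a single factor per mouse, which gave the counts and each mouse's lowest measurable value. Log2 values (1 added) of 445 genes entered a limma model (version 3.58.1, R 4.3.3) of 11 mice in 4 groups, adjusted after Benjamini and Hochberg, after a test on simulated data. The PBS spread rests on 2 mice per genotype, so it is shared over groups. Of the panel's symbols, 753 of 754 matched RefSeq (GRCm38.p6), 9 through synonyms, and 9 of the 10 likest genes had a promoter in its table. Named genes were Fscn1, the 10 most like it, some of those called lower in RαTd/Td mice after PBS, Retnla, the housekeeping genes and members of the lists. Fscn1 and the lists were chosen with earlier results of these data known. Alternatives covered the pseudocount, scaling, floor, filter, mice left out, groups fitted, moderation, the methods' t-test and normalization.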

Additional observations from a re-analysis of the deposited data

Results flagged for a closer look

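Among Fscn1 and the 10 genes most like it, 3 had 1 of the 4 IL-4c RαTd/Td mice above the floor of 30 with the other 3 at it. For Fscn1 it was mouse 11 at 32.3 normalized counts, its own lowest measurable value and below the 34.4 that could be measured in mouse 12, so it cannot be said to differ from the others. For Fpr1 it was again mouse 11, at 35.6, little above that limit. For Fcgr1 it was mouse 12 at 64.3. How often chance gives a gap of this kind in groups at the floor was not measured, and other genes of the panel had the same pattern.

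The fitted IL-4c differences of 3 named genes were not equal in the genotypes when this was tested with limma. That of Fpr1 was higher by 0.81 on the log2 scale in RαTd/Td mice (adjusted p = 0.0440) and that of Eif2b4 by 0.97 (adjusted p = 0.0193). Fpr1 was at the floor in 6 of 7 IL-4c mice and Eif2b4 in both PBS RαTd/Td mice, so these values compare limits, and whether the responses differed cannot be read from them. For Retnla the difference was -5.03 (adjusted p = 3.66e-07), since the gene is replaced in these mice.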

How the results depend on the processing

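No paired analysis was possible because the replicate numbers are not shared between groups. Fscn1 kept the direction of its differences after PBS (-1.91) and with IL-4c (-3.74 and -1.80 in Rα+/+ and RαTd/Td mice) under all 22 alternatives each, with sizes that moved. With 10 added, the IL-4c differences were -3.40 and -1.55. Centring gave -3.44, -1.54 and, after PBS, -2.05; quantile normalization gave -1.55 in RαTd/Td mice and -2.12 after PBS. A single floor gave -2.85 and -0.94. The normalizations chosen after seeing the data give upper limits for IL-4c, to be set beside limits of -3.55 and -1.77. Counts as read gave -0.93 in RαTd/Td mice and -2.69 after PBS, positive controls -2.27, -0.26 and -2.58, the sum of counts -4.01 in Rα+/+ mice and -2.13 after PBS, Gusb -1.99 and -1.76, and Rpl19 -1.52 and -2.22. Leaving out each mouse gave -3.94 to -3.54, -1.94 to -1.66 and -2.11 to -1.71. The difference after IL-4c (0.03) was 0 to 0.03 without single mice and -0.16 after centring, which is a difference between floors. The causes were not tested.

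The counts of called genes with IL-4c (206 and 231) stayed within 1.5 times, and with each mouse left out were 147 to 229 and 158 to 249. Centring turned their split from 62 higher and 144 lower to 106 and 92 in Rα+/+ mice, and from 68 and 163 to 104 and 110 in RαTd/Td mice; quantile normalization gave 104 and 107, and 89 and 109. Between genotypes the counts were less stable. After PBS (43) it was 26 with centring, 23 with quantile normalization and 18 without a filter. It was 3 with only the 2 groups and 2 by the methods' t-test with adjustment. Its split of 36 higher and 7 lower became 16 and 10 with centring and 15 and 8 with quantile normalization. Under a single floor the count was 40, with 36 higher and 4 lower. With mice left out it was 3 (without mouse 4) to 73 (without mouse 1), and in between 19 (mouse 2 or 5 left out), 21 (mouse 10), 25 (mouse 3) and 28 (mouse 7). For the IL-4c mice (12 called; 7 higher, 5 lower) it was 3 with a single floor (0 higher), 5 without a filter, 7 with a mean above 100, 2 with only the 2 groups, and 73 and 2 by the methods' t-test without and with adjustment; centring gave 3 higher and 5 lower, and quantile normalization 5 and 7. With mice left out it was 5 (without mouse 5 or 12) to 27 (without mouse 9), 7 without mouse 6 or 7, and 6 without mouse 1, 2, 3, 4 or 11. A lone mouse in a group was assumed to vary like the other groups. Of the 10 genes most like Fscn1, 7 were also among the 10 with the highest Pearson correlation. Depth limits what can be said below 30.5 to 56.3 normalized counts, and 2 mice per PBS group limit the spread.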
